A study of Rattus norvegicus with 24 samples.

Results

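Grin2c and Samd7 are 2 of 15508 genes or unnamed transcripts measured here in rat liver, found by their names on the arrays and read by 2 probes each, 4 of 21900 probes. Grin2c encodes a subunit of a brain glutamate receptor and Samd7 a protein of the retina, and both genes had been picked because earlier results of these arrays placed them among the largest increases. Their ratios are therefore given as a description, without a test. Both genes go by their names on the arrays, and whether their probes read other transcripts was not tested. Against vehicle, Grin2c was 16.6-fold higher under hexachloroethane, 10.1-fold under 1-amino-2-methylanthraquinone, 9.87-fold under monuron and 5.13-fold under 1,2-dichlorobenzene. Samd7 was 6.03-, 7.15-, 5.50- and 5.21-fold higher under the same compounds. Under 1,2,3-trichloropropane the ratios were 1.53-fold for Grin2c and 1.69-fold for Samd7, and under tetracycline hydrochloride 1.05-fold and 1.17-fold. For Grin2c these rest on signals near background. With the scanner's own log ratio both genes exceeded 2-fold under 1,2,3-trichloropropane (log2 ratios of 1.75 and 1.58).

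The 24 male F344 rats, an inbred laboratory strain, fell into 6 groups of 4, and every rat was gavaged once a day for 28 days. The design lists as carcinogens hexachloroethane (500 mg/kg/day), 1,2,3-trichloropropane (50 mg/kg/day), 1-amino-2-methylanthraquinone (150 mg/kg/day) and 3-(4-chlorophenyl)-1,1-dimethylurea, the herbicide monuron (250 mg/kg/day). As non-carcinogens it lists 1,2-dichlorobenzene (300 mg/kg/day) and the antibiotic tetracycline hydrochloride (1000 mg/kg/day). The carrier was water for tetracycline hydrochloride and corn oil for the remaining 5 compounds, at 5 ml/kg, to rats bought at 4 weeks of age and labelled as 5 weeks old. Each array compared Cy3-labelled liver RNA of 1 treated rat with Cy5-labelled liver RNA pooled from 4 rats that had received vehicle alone. The pool counts as 1 sample, so the spread between vehicle rats is in no value, and no array had the dyes swapped. Each compound had its own slide and its own dose, so compound, slide and dose cannot be told apart.

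NMDA receptors are cation channels that open when glutamate binds together with glycine or serine. They are built from the obligatory subunit GluN1 with GluN2 or GluN3 subunits, and Grin2c encodes GluN2C, best known from cerebellar granule cells. Samd7 carries a sterile alpha motif, a domain through which proteins assemble, and acts with Polycomb repressors in rod photoreceptors to keep other genes silent. Neither gene is counted among the usual products of hepatocytes.

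The probes show what the arrays could tell apart. Both Grin2c probes are 60 bases long and share 57 of them, shifted by 3 bases, so they read almost the same stretch of the transcript. Their first 30 bases are given 5′ to 3′, with the 3 leading bases that only the first probe has in capitals.
Grin2c probe 5510: CAAtaggctggggtttcttttcataggggc
Grin2c probe 700953: taggctggggtttcttttcataggggcatt
Both Samd7 probes have one sequence, with 0 bases that differ, and are a repeat of 1 measurement on other spots.
Samd7 probes 3246 and 13246: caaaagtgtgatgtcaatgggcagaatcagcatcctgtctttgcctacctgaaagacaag
Where these stretches lie in the exons was not analysed here. That the Samd7 probes read Samd7 RNA, and not that of another gene such as Gpx2, was not tested. Values called Samd7 in this report are those of the probes with that name. Each probe had 2 spots on every array, and none of the 192 member spots was saturated or marked as an outlier. All 4 probes passed the filter on dim probes. Values below come from the brighter probe of each gene, 700953 and 3246.

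The stretches before the gene starts are shown because the probes named for both genes were high under the same compounds. They are the 250 bases upstream of the RefSeq start in the rat build GRCr8, on the minus strand, at chr10:101005139-101005388 for Grin2c and chr2:114572775-114573024 for Samd7. Capitals mark a match to AGGTCA, the half-site of nuclear receptors such as CAR and PXR.
Grin2c promoter: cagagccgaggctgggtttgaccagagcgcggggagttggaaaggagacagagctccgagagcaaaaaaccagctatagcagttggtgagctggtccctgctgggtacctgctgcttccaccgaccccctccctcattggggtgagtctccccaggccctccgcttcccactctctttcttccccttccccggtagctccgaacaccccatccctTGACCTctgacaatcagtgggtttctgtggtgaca
Samd7 promoter: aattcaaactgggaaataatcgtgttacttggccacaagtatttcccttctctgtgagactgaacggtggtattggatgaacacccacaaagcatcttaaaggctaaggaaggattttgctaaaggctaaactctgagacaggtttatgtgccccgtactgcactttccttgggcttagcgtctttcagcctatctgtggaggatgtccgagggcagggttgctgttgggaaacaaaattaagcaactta
The 3 motifs below were searched on both strands, and the single match overlapped no other. AGGTCA had 1 match before Grin2c, on the strand opposite to the gene, starting 35 bases before its start, and 0 before Samd7, while 13.7% of 27457 promoters of this length held it. GCGTG, the core that the aryl hydrocarbon receptor reads, had 0 matches in both (27.2% of promoters). TGACNNNGC, the core of the antioxidant response element that Nrf2 reads, had 0 matches in both (10.2% of promoters). The Grin2c stretch was 59.6% G and C and the Samd7 stretch 44.8%, beside a median of 52.0% over all promoters.

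Per array, the scanner put 59.7 to 71.7% of probes well above background for the treated rat and 64.2 to 75.9% for the pool. On 1 hexachloroethane array, 7 spots with a local background far above their own signal spoiled the background correction and were left out. After the filter on dim probes, 11598 genes were tested, 4770 of them with a symbol. Hepatocyte markers such as Alb and Hnf4a were well above background on all 24 arrays in 12 of 12 genes. In what follows a mean is a log2 ratio, treated over vehicle, averaged over 4 rats, with its SD (n = 4).

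Grin2c stood highest under hexachloroethane, a chlorinated ethane. The 4 rats had log2 ratios of 4.01, 3.99, 4.06 and 4.15, a mean of 4.05 ± 0.07. The scanner signal of the treated channel ran from 3551 to 5811 units and that of the vehicle channel from 792 to 1114, over backgrounds of 297 and 278. The 4 rats lay close together, and none of the other 20 rats reached these ratios. In the series table, however, replicate 3 of monuron (4.24) lay above replicate 2 of hexachloroethane (4.23). Among all 11598 genes this was the largest mean increase under hexachloroethane, and with the scanner's own log ratio or the series table it ranked 2.

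Under 1-amino-2-methylanthraquinone, a dye intermediate, the Grin2c ratios were 3.65, 3.19, 3.37 and 3.14 (mean 3.34 ± 0.23). Under monuron they were 3.26, 3.41, 3.33 and 3.21 (mean 3.30 ± 0.08). Both groups overlapped, with means 0.03 apart, and both lay below hexachloroethane and above 1,2-dichlorobenzene without overlap. In the series table monuron overlapped hexachloroethane, and its mean of 4.12 lay above the 3.98 of 1-amino-2-methylanthraquinone. The treated signal ran from 994 to 1446 units under 1-amino-2-methylanthraquinone and from 1206 to 1413 under monuron. Grin2c ranked 7 among the increases under 1-amino-2-methylanthraquinone and 3 under monuron.

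Under 1,2-dichlorobenzene, a chlorinated benzene, the rats differed from each other most. Their Grin2c ratios were 2.68, 2.90, 2.32 and 1.53 (mean 2.36 ± 0.60). The lowest of these rats still lay above every rat given 1,2,3-trichloropropane or tetracycline hydrochloride. Its treated signal was 483 units, while the other 3 rats had between 682 and 1030. The vehicle channel was well above background on 3 of these 4 arrays.

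Under 1,2,3-trichloropropane, a chlorinated propane, the Grin2c ratios were 0.74, 0.47, 0.73 and 0.52 (mean 0.61 ± 0.14). Under tetracycline hydrochloride they were -0.08, 0.05, 0.31 and 0.0024 (mean 0.07 ± 0.17). The groups lay close to each other without overlap, and only the first lay above 0 in all 4 rats. Signals were dim here: the treated channel read 374 to 397 units under 1,2,3-trichloropropane and 315 to 341 under tetracycline hydrochloride, over backgrounds of 288 and 297. The treated channel was well above background on 4 and 2 of 4 arrays respectively, and the vehicle channel on 2 and 3. The trichloropropane ratio depended on the processing, at 1.75 with the scanner's log ratio and 1.61 with the series table, as set out further on.

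**Figure D1:**
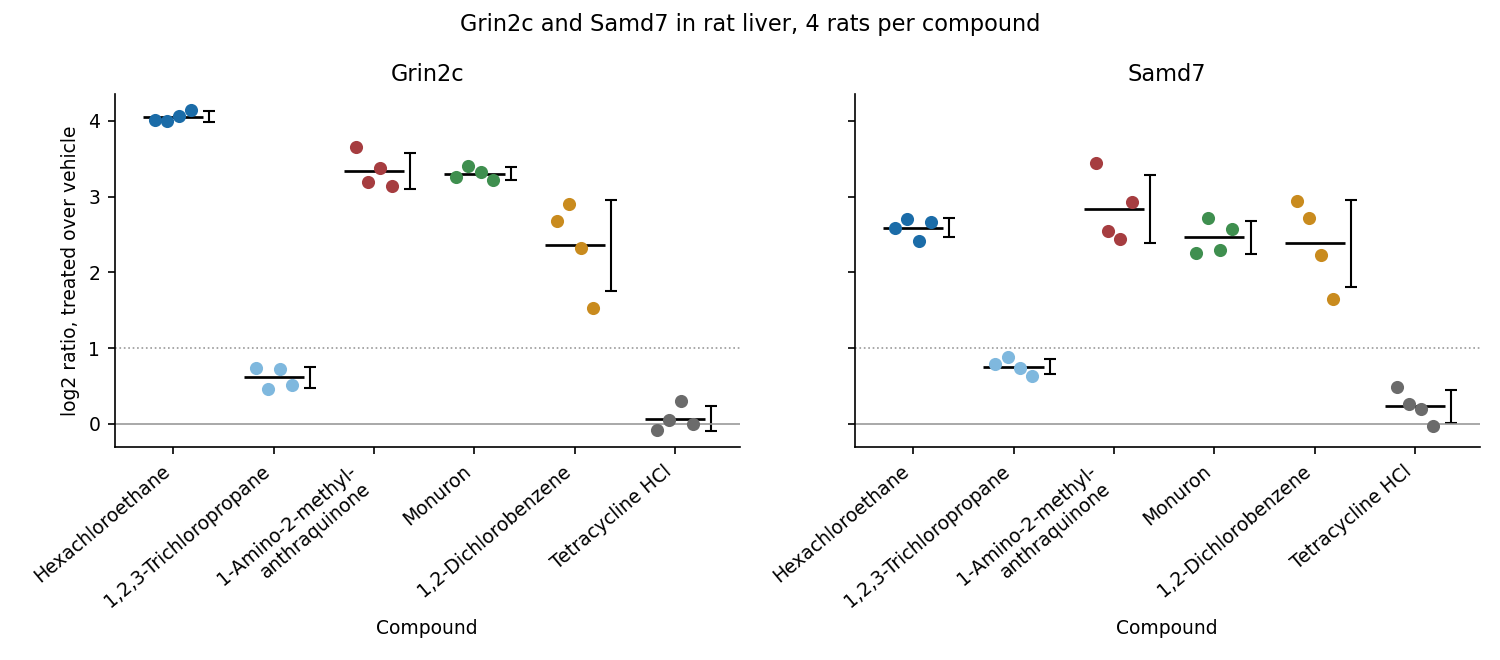
Log2 ratio of treated over vehicle for Grin2c (left) and Samd7 (right), with 1 point for each rat, a line at the mean and a bar of ± 1 SD (n = 4) for each of 6 compounds. The dotted line is a 2-fold increase. Every rat given hexachloroethane, 1-amino-2-methylanthraquinone, monuron or 1,2-dichlorobenzene lies above it for both genes, and every rat of the other 2 compounds lies below it.

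Samd7 was high under the same compounds as Grin2c, but in another order. Under 1-amino-2-methylanthraquinone the 4 ratios were 3.44, 2.54, 2.44 and 2.93 (mean 2.84 ± 0.45). Under hexachloroethane they were 2.59, 2.70, 2.41 and 2.66 (mean 2.59 ± 0.13). These groups overlapped, so their order is not beyond the spread of the rats. Hexachloroethane did not stand apart for Samd7 as it did for Grin2c in the values given here, though not in the series table. Under monuron the ratios were 2.26, 2.72, 2.30 and 2.57 (mean 2.46 ± 0.22). Under 1,2-dichlorobenzene they were 2.94, 2.71, 2.23 and 1.65 (mean 2.38 ± 0.57). Each of these 4 groups overlapped the next in the order of their means. Samd7 ranked 11, 7, 11 and 13 among the increases of 11598 genes under these compounds, in the order given.

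The Samd7 ratios under 1,2,3-trichloropropane were 0.79, 0.88, 0.74 and 0.63 (mean 0.76 ± 0.10). Under tetracycline hydrochloride they were 0.49, 0.27, 0.19 and -0.02 (mean 0.23 ± 0.21). The 2 groups did not overlap, and both lay below every rat of the other 4 compounds. Samd7 was well above background in both channels on all 24 arrays, also where it was lowest. Its treated signal ran from 413 to 438 units under 1,2,3-trichloropropane and from 342 to 368 under tetracycline hydrochloride, while under 1-amino-2-methylanthraquinone it ran from 691 to 1179. The vehicle signals lay between 354 and 516 units over all arrays.

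The second probes are given beside the first. Grin2c probe 5510 read 3.96 ± 0.07 under hexachloroethane, 3.26 ± 0.24 under 1-amino-2-methylanthraquinone, 3.23 ± 0.14 under monuron and 2.23 ± 0.60 under 1,2-dichlorobenzene. Under tetracycline hydrochloride its treated channel was not well above background on any array, and no ratio is given. Under 1,2,3-trichloropropane its vehicle channel was not well above background on any array, so its change is given only as at least 1.35-fold (0.53 ± 0.13 as measured), set against the lowest signal that lay well above background. The second Samd7 probe read 2.61 ± 0.12, 2.79 ± 0.38, 2.50 ± 0.25, 2.33 ± 0.57, 0.78 ± 0.10 and 0.22 ± 0.23 under hexachloroethane, 1-amino-2-methylanthraquinone, monuron, 1,2-dichlorobenzene, 1,2,3-trichloropropane and tetracycline hydrochloride. The largest gap between both probes in 1 rat was 0.37 for Grin2c and 0.17 for Samd7, and the largest gap between both spots of a probe was 0.30 and 0.45. Since each pair overlaps in sequence, its probes are not independent measurements.

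The rule for a call, the same for all genes, asked for a change of at least 2-fold and an adjusted p (limma, Benjamini-Hochberg) under 0.05. Both members were called higher under 4 of 6 compounds, hexachloroethane, 1-amino-2-methylanthraquinone, monuron and 1,2-dichlorobenzene, and lower under none. Of all 11598 genes, 0.526% were called higher under hexachloroethane, 1.25% under 1-amino-2-methylanthraquinone, 0.733% under monuron and 0.776% under 1,2-dichlorobenzene. The shares were 0.293% under 1,2,3-trichloropropane and 0.155% under tetracycline hydrochloride. The members had been picked on these ratios, so nothing follows from their calls. In the classes of the design, each member was called under 3 of 4 carcinogens and 1 of 2 non-carcinogens, which did not separate the classes.

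The share of all genes called higher under at least 4 compounds was 0.216%, or 25 genes. Only 6 genes were called higher under exactly these 4 compounds and no other: both members, the exporter gene Abcc3, the cytochrome P450 gene Cyp1a1 and 2 transcripts without a symbol. Abcc3, which carries conjugates out of hepatocytes, read 1.41 ± 0.21 under hexachloroethane, 1.35 ± 0.21 under 1-amino-2-methylanthraquinone, 1.15 ± 0.11 under monuron and 1.26 ± 0.17 under 1,2-dichlorobenzene. Cyp1a1, the classic target of the aryl hydrocarbon receptor, read 3.24 ± 0.27, 5.01 ± 0.44, 2.77 ± 0.37 and 1.91 ± 0.83 under the same compounds. Both were singled out after their values were seen. The shared set of 4 belongs to this setting: Cyp1a1 and both members were called under 5 compounds with the scanner's log ratio and the series table, and Abcc3 was called under hexachloroethane alone with median centring.

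Across the 24 rats the Grin2c and Samd7 ratios had a Pearson r of 0.94, and across the 6 compound means 0.96. Within compounds, after the compound means were taken off, r was 0.69. All these values share the array and its vehicle pool, and they are a description. In the dichlorobenzene group the same rat, replicate 4, was lowest for both genes. The ratio of Grin2c exceeded that of Samd7 by 1.46 ± 0.15 under hexachloroethane, by 0.84 ± 0.20 under monuron and by 0.50 ± 0.35 under 1-amino-2-methylanthraquinone, in 4 of 4 rats each time. The difference was -0.02 ± 0.20 under 1,2-dichlorobenzene, -0.14 ± 0.18 under 1,2,3-trichloropropane and -0.16 ± 0.31 under tetracycline hydrochloride.

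**Figure D2:**
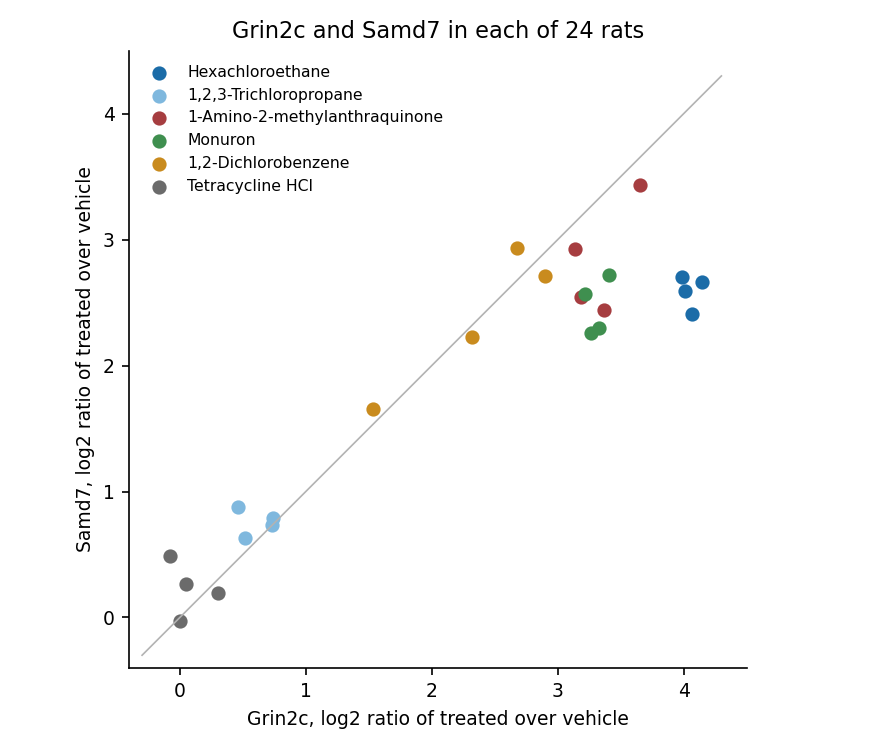
Log2 ratio of Grin2c against that of Samd7 in each of 24 rats, coloured by compound, with the line of equal ratios. The rats given 1,2-dichlorobenzene lie along the line, and the 4 hexachloroethane rats lie to its right, where Grin2c exceeds Samd7 by 1.29 to 1.65.

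The vehicle channel of Grin2c was not level over the slides. On the hexachloroethane slide the pool read 792 to 1114 units, on the slides of 1-amino-2-methylanthraquinone, monuron and 1,2-dichlorobenzene 431 to 498, 415 to 468 and 333 to 413, and on the other slides 311 to 351. After scaling between arrays, the vehicle level on the hexachloroethane slide was 1.61 log2 above the mean of the other 5 slides, rank 7 of 11598 genes, and that of the treated channel was 3.72 above. On the slides of 1,2,3-trichloropropane and tetracycline hydrochloride the vehicle level was 0.69 and 0.82 lower than on the others, with treated levels 2.70 and 3.48 lower. The vehicle channel was thus high where the treated channel was high. Across the hexachloroethane arrays the vehicle signals were 792, 833, 908 and 1114 units beside treated signals of 3551, 3800, 4281 and 5811, in the same order. For Samd7 the vehicle level on the hexachloroethane slide was 0.31 above the others, and on the tetracycline slide it was 0.32 lower. Over all genes the median of the same difference on the hexachloroethane slide was 0.0031. Among the genes called higher under a compound, the vehicle level on its slide lay above that of the other slides for 43 of 61 under hexachloroethane, 4 of 34 under 1,2,3-trichloropropane, 56 of 145 under 1-amino-2-methylanthraquinone, 24 of 85 under monuron, 48 of 90 under 1,2-dichlorobenzene and 4 of 18 under tetracycline hydrochloride. Over all genes that share was between 46.5 and 53.0%. Whether the compounds given in corn oil shared 1 vehicle pool is not given in the sources used here. Pools that differed between slides and treated signal read in the vehicle channel cannot be told apart, and the Grin2c folds against vehicle rest on these signals.

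**Figure D3:**
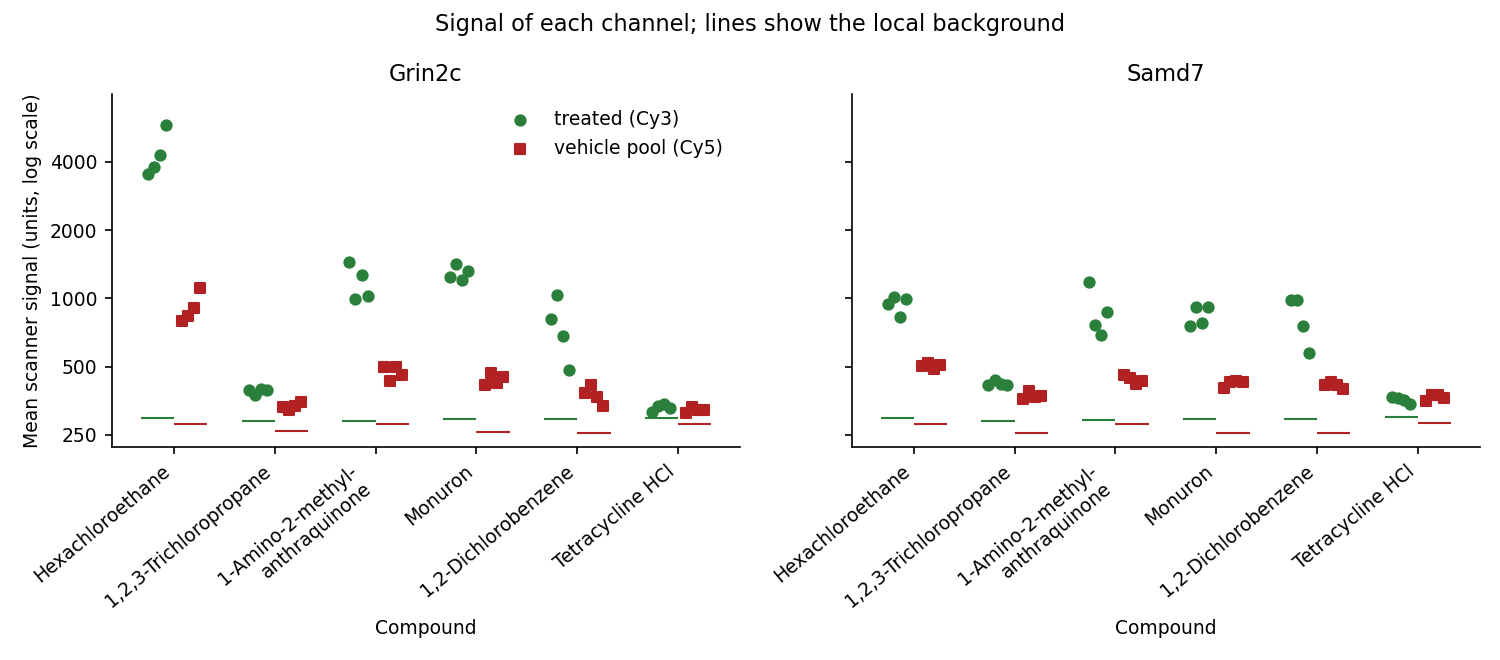
Mean scanner signal (arbitrary units, log axis) of the treated rat (Cy3, circles) and the vehicle pool (Cy5, squares) on each array for Grin2c (left) and Samd7 (right), with short lines at the mean local background. The Grin2c vehicle signals on the hexachloroethane slide, 792 to 1114 units, lie above those on every other slide, while under tetracycline hydrochloride both channels lie close to background.

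The size of the ratios depended on the processing. The values above come from a background correction that adds 50 units to each signal before logs are taken. The scanner's log ratio, made with its own correction, gave Grin2c 4.28 under hexachloroethane, 3.97 under 1-amino-2-methylanthraquinone, 4.14 under monuron, 3.40 under 1,2-dichlorobenzene, 1.75 under 1,2,3-trichloropropane and 0.41 under tetracycline hydrochloride. For Samd7 it gave 3.16, 3.58, 3.36, 3.12, 1.58 and 0.66. Under 1,2,3-trichloropropane both genes were then called, so 5 of 6 compounds were called for each. The series table gave 1.61 and 1.56 there, also called for both. With median centring in place of loess, Grin2c read 1.07 and was called under 1,2,3-trichloropropane, and Samd7 read 1.00 and was not. Tetracycline hydrochloride was not called for either gene under any of these settings, and its Grin2c ratio reached 0.70 with median centring.

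Only 2 of the scan days held more than 1 compound. Hexachloroethane and tetracycline hydrochloride were scanned on the same day, and their means differed by 3.98 for Grin2c and 2.36 for Samd7. Monuron and 1,2-dichlorobenzene shared another day, with differences of 0.95 for Grin2c and 0.08 for Samd7. The other 2 compounds had a day each.

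The genes whose ratios over the 24 arrays were most like a member's were found by Pearson r among 11597 other genes, and those with a symbol are named. The typical gene had an r near 0 (median 0.0042 with Grin2c and 0.0083 with Samd7), and 12 genes exceeded 0.9 with Grin2c and 11 with Samd7. For Grin2c the closest were Abhd4, a lipase of N-acyl phospholipids (r = 0.94), Samd7 (0.94), Gpx2 (0.93), the annexin gene Anxa7 (0.92) and the proteasome subunit gene Psmb4 (0.92). For Samd7 they were Gpx2 (0.99), Abcc3 (0.95), Grin2c (0.94), Anxa7 (0.92) and the histone chaperone gene Nap1l1 (0.91). Samd7 was rank 3 among all genes in likeness to Grin2c, and Grin2c rank 5 in likeness to Samd7.

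Gpx2, a glutathione peroxidase of epithelia and a known Nrf2 target, tracked the probes named Samd7 closely. It read 2.48 ± 0.08 under hexachloroethane, 2.78 ± 0.28 under 1-amino-2-methylanthraquinone, 2.52 ± 0.16 under monuron and 2.40 ± 0.37 under 1,2-dichlorobenzene. Under 1,2,3-trichloropropane it read 1.12 ± 0.13 and was called, which Samd7 was not, and under tetracycline hydrochloride 0.33 ± 0.24. Within compounds its r with Samd7 was 0.96 and with Grin2c 0.66. Whether the Samd7 probes read Gpx2 RNA, so that the same transcript was measured under both names, was not tested. Likeness of pattern did not mean likeness of size. Anxa7 read 1.55 ± 0.09, 1.57 ± 0.24, 0.88 ± 0.07 and 0.96 ± 0.31 under hexachloroethane, 1-amino-2-methylanthraquinone, monuron and 1,2-dichlorobenzene, while Abhd4 stayed at or below 0.72, Psmb4 at or below 0.45 and Nap1l1 at or below 0.38 under all compounds.

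**Figure D4:**
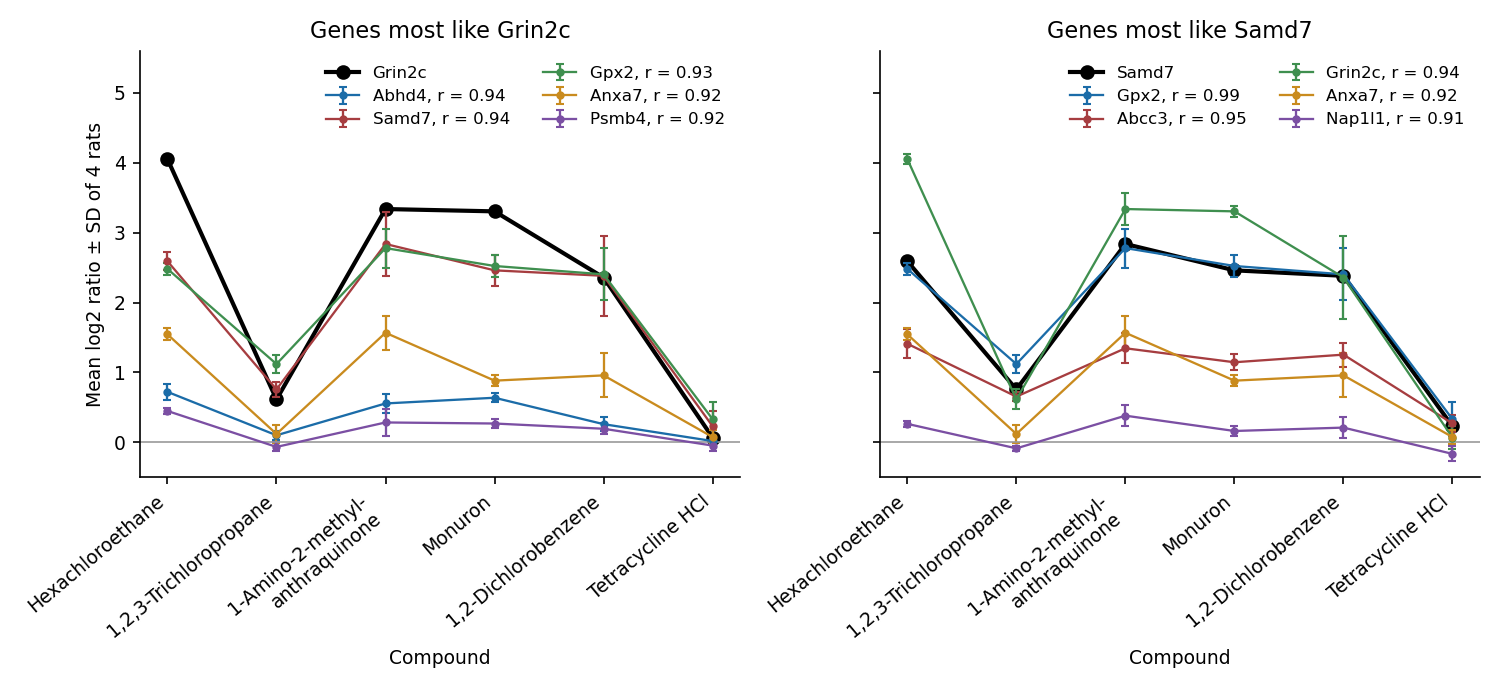
Mean log2 ratio under 6 compounds for Grin2c (left) and Samd7 (right), in black without error bars, and in colour (± SD, n = 4) for the 5 genes with a symbol whose ratios over 24 rats had the highest Pearson r with it. Gpx2 lies almost on Samd7 under 4 compounds and above it under 1,2,3-trichloropropane, while the means of Abhd4, Psmb4 and Nap1l1 stay below 1 under every compound. Whether the Samd7 probes read Gpx2 RNA was not tested.

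No other tested glutamate receptor gene was called higher. Of 18 genes for ionotropic subunits, 8 were on the arrays and 5 were tested, and Grin2c was the only one called. Of the tested genes of this family, Grin2b, for a sister NMDA subunit, was well above background on 7 of 24 arrays in the treated channel. Its ratios are thus limited by signals near background. Grin2b read 0.05 ± 0.11 and Grin3b 0.10 ± 0.15 under hexachloroethane. Grin3a, which encodes a glycine-binding NMDA subunit, read -0.30 ± 0.15 there and -0.82 ± 0.54 under monuron. Gria3, for an AMPA receptor subunit, read 0.25 ± 0.16 under 1-amino-2-methylanthraquinone. With median centring, the scanner's log ratio or the series table, Grin3a was called lower under monuron (-1.07, -1.03 and -1.04). Gria2, for an AMPA receptor subunit, and Grik2, for a kainate receptor subunit, were never well above background, and neither was the metabotropic receptor gene Grm8. The gene of the obligatory subunit, Grin1, was not analysed here. Of all genes, 4.07% were called under at least 1 compound, 2.17% higher and 1.97% lower. Called lower were 0.509% under hexachloroethane, 0.638% under 1,2,3-trichloropropane, 0.871% under 1-amino-2-methylanthraquinone, 0.664% under monuron, 0.828% under 1,2-dichlorobenzene and 0.129% under tetracycline hydrochloride. None of 10 tested genes for scaffold and signalling partners of NMDA receptors was called.

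Genes that make, move or break down glutamate were lower where they were called. Of 15 tested, 4 were called lower under at least 1 compound, beside 1.97% of all genes, and 0 higher, beside 2.17%. The median ratio of the 15 lay between -0.25 and 0.01 over the compounds, beside -0.02 to -0.01 for all genes. With median centring 10 of the 15 were called lower, in a setting where 10.4% of the calls of all genes were higher. Oat, the ornithine aminotransferase of perivenous hepatocytes, fell under 5 compounds, to -3.72 ± 0.61 under 1,2-dichlorobenzene. Slc1a2, a glutamate transporter, fell under hexachloroethane (-1.34 ± 0.10) and 1,2-dichlorobenzene (-2.06 ± 0.40). Glul, the glutamine synthetase, fell under hexachloroethane (-1.21 ± 0.21), and Got1, an aspartate aminotransferase, under 1,2,3-trichloropropane (-1.57 ± 0.34) and monuron (-1.01 ± 0.31). Their r with Grin2c over the 24 rats lay between -0.33 and 0.17.

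Among 12 tested genes of glycine and serine metabolism, 2 rose and 1 fell under at least 1 compound. Of all genes, 2.17% were called higher and 1.97% lower. Phgdh, the first enzyme of serine synthesis, rose under hexachloroethane, 1,2,3-trichloropropane (1.98 ± 0.41) and 1,2-dichlorobenzene (2.64 ± 0.21), with the widest spread under hexachloroethane (SD 1.19). Psat1, the next enzyme, rose under the same 3 compounds (1.09 ± 0.80, 1.16 ± 0.42 and 1.09 ± 0.30), and with median centring it was not called under hexachloroethane (0.94). Sds, which degrades serine, fell under all compounds but tetracycline hydrochloride, to -2.41 ± 0.25 under 1,2,3-trichloropropane. None of these 3 genes followed Grin2c, with r between -0.04 and 0.18.

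Among the tested genes tied to the known setting of Samd7, none but Samd7 itself was called, and Samd7 had been picked for its ratios. Of all genes, 4.07% were called under at least 1 compound, so the lack of calls among few genes says little. Of 21 genes for proteins with a sterile alpha motif, only Samd7 and Samd4b were on the arrays, and Samd4b, a translation repressor, was not called (0.35 ± 0.06 at its highest, under hexachloroethane). None of 12 tested Polycomb genes was called, and their median lay between -0.06 and 0.11. With median centring, Scmh1 was called lower under 1-amino-2-methylanthraquinone (-1.02). Of 34 photoreceptor genes, 5 were on the arrays and 2 were tested. The treated channel was well above background on 16 of 24 arrays for Cngb1 and on 5 for Impg2, so signals near background limit their ratios. Neither Cngb1, for a rod channel subunit, nor Impg2, for a retinal matrix protein, was called, with ratios of -0.29 ± 0.04 and -0.19 ± 0.08 under 1-amino-2-methylanthraquinone. With the scanner's log ratio Cngb1 was called lower there (-1.01).

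The neighbours of both genes on the chromosomes did not move with them. Of the 5 protein-coding genes on each side, 1 neighbour of Grin2c and 2 of Samd7 were measured, and none was called. Nherf1, a membrane scaffold gene near Grin2c, lay between -0.38 and -0.10 over the 6 compounds. Sec62, next to Samd7, which encodes a part of the protein translocation machinery, and Prkci, a protein kinase C gene, lay between -0.27 and 0.16.

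Targets of the receptors that sense foreign compounds are given beside the members. Of 24 tested targets of CAR and PXR, nuclear receptors that switch on drug metabolism in liver, 9 rose under hexachloroethane, 8 under monuron, 6 under 1,2-dichlorobenzene, 5 under 1-amino-2-methylanthraquinone, 3 under 1,2,3-trichloropropane and 1 under tetracycline hydrochloride. With median centring 7, 3, 3, 2, 2 and 0 were called higher and 2, 3, 3, 9, 4 and 2 lower, in the same order. Without median centring, the shares of all genes called higher were 0.526%, 0.733%, 0.776%, 1.25%, 0.293% and 0.155%. In either direction they were 1.03%, 1.40%, 1.60%, 2.12%, 0.931% and 0.285%. Ces2c, a carboxylesterase gene, read 2.67 ± 0.28 under hexachloroethane, 1.46 ± 0.23 under 1-amino-2-methylanthraquinone and 1.17 ± 0.14 under monuron and rose there, with r = 0.86 with Grin2c. With median centring it was called under hexachloroethane but not under 1-amino-2-methylanthraquinone (0.78) or monuron (0.68). Ugt2b1, for a glucuronosyltransferase, rose under 5 compounds. Its call under tetracycline hydrochloride (1.01 ± 0.29) was lost with the scanner's log ratio (0.98), the series table (0.97) and median centring (0.51), and median centring also ended that under 1,2,3-trichloropropane (0.59). Aldh1a1, for an aldehyde dehydrogenase, rose under 5 compounds including 1,2,3-trichloropropane (2.38 ± 0.24), and with median centring it was not called under hexachloroethane (0.65). Cyp3a9 fell under 4 compounds, to -3.91 ± 0.51 under 1-amino-2-methylanthraquinone. The r of Ugt2b1, Aldh1a1 and Cyp3a9 with Grin2c lay between -0.30 and 0.48, beside 0.86 for Ces2c.

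Of 6 tested targets of the aryl hydrocarbon receptor, 4 rose under at least 1 compound, beside 2.17% of all genes. With median centring 3 were called higher and 2 lower. Cyp1a1 had r = 0.85 with Grin2c and 0.87 with Samd7. Cyp1a2 rose under 1-amino-2-methylanthraquinone (2.46 ± 0.18) and monuron (1.54 ± 0.05) but fell under 1,2-dichlorobenzene (-1.19 ± 0.59), where both members were high. Nqo1, a quinone reductase gene that is also an Nrf2 target, rose under 5 compounds, with 2.39 ± 0.25 under 1,2-dichlorobenzene. Ugt1a6, for a glucuronosyltransferase, was called under 1,2-dichlorobenzene (1.00 ± 0.18) but not with median centring (0.42), the scanner's log ratio (0.99) or the series table (0.99). With median centring Cyp1a2 was not called under monuron (0.69), nor Nqo1 under hexachloroethane (0.85) or 1,2,3-trichloropropane (0.53).

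Of 18 tested targets of Nrf2, the factor that answers oxidative and electrophile stress, 8 rose under at least 1 compound and 0 fell. Of all genes, 2.17% were called higher and 1.97% lower. With median centring 7 of the targets were called higher and 3 lower. Tetracycline hydrochloride raised 1 of the targets and 1,2-dichlorobenzene 8. Gsta3, for a glutathione transferase, rose under all 6 compounds, from 1.54 ± 1.13 under tetracycline hydrochloride to 5.25 ± 0.06 under monuron. It read 4.58 ± 0.49 under 1,2,3-trichloropropane, where Grin2c read 0.61 and Samd7 0.76 (1.75 and 1.58 with the scanner's log ratio, both called). Akr7a3, an aldehyde reductase gene, read 2.60 ± 0.44 there and rose under 4 compounds, and Gstp1, for a placental glutathione transferase, read 2.14 ± 0.59 there and 4.64 ± 0.39 under 1,2-dichlorobenzene. The r of these 3 genes with Grin2c lay between -0.19 and 0.27, while Gpx2 of the same list had 0.93. The lists of targets had been chosen with earlier results of these data known. The part of CAR, PXR, the aryl hydrocarbon receptor and Nrf2 in the members' ratios was not tested.

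Liver RNA comes from many cell types, and more cells of a type cannot be told apart from more RNA per cell. Markers of the cells in which Grin2c and Samd7 are best known were mostly dim. Of 6 neuron markers on the arrays, 4 (Nefl, Nefm, Map2 and Calb1) were never well above background in either channel. Snap25 was above it on 0 arrays in the treated channel and on 4 in the vehicle channel. The tested gene, Syn1, was well above it on all 24 arrays in both channels and was not called, with means between -0.09 and 0.03. Glia markers were brighter, with 4 of 5 well above background on all 24 arrays. None was called, beside 4.07% of all genes called under at least 1 compound. The photoreceptor channel gene Cnga1 was never above background, while Cngb1 was well above it on 16 arrays in the treated channel and 24 in the vehicle channel. Of 12 hepatocyte markers, 1 fell, beside 1.97% of all genes called lower under at least 1 compound. It was Serpina1, under 1,2,3-trichloropropane (-1.06 ± 0.11) and 1,2-dichlorobenzene (-1.10 ± 0.10), and the list median lay between -0.59 and -0.02. Serpina1 was not called with the mean of its kept probes, the scanner's log ratio (-0.77 and -0.78) or the series table (-0.81 and -0.78). With median centring 11 of the 12 were called lower, in a setting where 10.4% of the calls of all genes were higher.

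Bile duct markers rose under 1 of the compounds under which the members were called. Under 1-amino-2-methylanthraquinone 3 of 4 tested rose, beside 1.25% of all genes called higher there. They were the epithelial adhesion gene Epcam (2.11 ± 0.27), the matrix protein gene Spp1 (1.72 ± 0.20) and the keratin gene Krt19 (1.47 ± 0.35), with a list median of 1.60. Under the other 5 compounds none was called and the list median lay between -0.15 and 0.15, and Grin2c and Samd7 were called under 3 of these 5. Below the 2-fold limit, Epcam read 0.90 ± 0.17 under hexachloroethane, 0.74 ± 0.10 under monuron and 0.93 ± 0.21 under 1,2-dichlorobenzene, beside 0.48 ± 0.23 under 1,2,3-trichloropropane and 0.39 ± 0.26 under tetracycline hydrochloride. Its r over the 24 rats was 0.57 with Grin2c and 0.68 with Samd7, while that of Spp1 was 0.11 and 0.23 and that of Krt19 0.32 and 0.40. The part of bile duct cells in the members' ratios was not tested. Of 4 Kupffer cell and macrophage markers, 1 rose, the scavenger receptor gene Marco under monuron (1.07 ± 0.45), where 0.733% of all genes were called higher. Without replicate 1 Marco was not called. With median centring Marco was not called there (0.56) and was called lower under 1,2-dichlorobenzene (-1.08).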

How the data were processed

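Liver RNA of 24 treated rats was read on 2-colour Agilent arrays with Agilent Feature Extraction 9.1.3.1, per the submitters' processing notes. The deposited scanner files hold mean signals and local backgrounds as linear intensity and a log10 ratio of red over green, per the file headers. The deposited series table holds log2 ratios of treated over vehicle, with array medians between -0.01 and 0.08. Its scale and direction matched the scanner's ratios (r 0.68 to 0.99), and its centring is not given in the sources used here.

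With limma 3.58.1 in R 4.3.3, signals were corrected with normexp (offset 50) and scaled by loess within arrays. Spots of a probe were averaged. A probe was kept (16084 of 21900) if 1 compound's 4 arrays all had it well above background in the same channel. A gene was its brightest probe. On 1 hexachloroethane array, 7 spots with background more than 100 units above signal were left out, a step chosen after seeing the data. One fit (lmFit, eBayes, 18 residual degrees of freedom) gave a mean per compound. P-values of deposited arrays measure only the spread among the treated rats.

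Members, gene lists and tests were chosen with earlier results of these data known. The rule for named genes took both members, up to 4 called genes of a list with the largest ratio, measured neighbours (by RefSeq gene order) and the 5 genes with a symbol most like each member. The names printed on the array design were updated with RefSeq: 6176 probes matched a current symbol, 1918 an older one, 901 a RefSeq record and 621 a gene ID, while 11737 had no gene name. Sequences are from the scanner files and RefSeq (GRCr8).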

Additional observations from a re-analysis of the deposited data

How the results depend on the processing

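Both members were called higher under the same 4 compounds in every alternative run. With values given for hexachloroethane, then 1,2,3-trichloropropane, then 1-amino-2-methylanthraquinone, monuron, 1,2-dichlorobenzene and tetracycline hydrochloride, the scanner's log ratio gave Grin2c 4.28, 1.75, 3.97, 4.14, 3.40 and 0.41, Samd7 3.16, 1.58, 3.58, 3.36, 3.12 and 0.66, and 296, 289, 556, 310, 354 and 101 called genes, where the normexp fit called 120, 108, 246, 162, 186 and 33. The series table gave Grin2c 4.27, 1.61, 3.98, 4.12, 3.40 and 0.51, Samd7 3.14, 1.56, 3.58, 3.41, 3.12 and 0.53, and 299, 282, 543, 301, 348 and 113 genes. Median centring gave 356, 446, 1091, 473, 464 and 185 genes, and the median of all genes moved to between -0.33 and -0.21. It also moved Grin2c to 3.69 under hexachloroethane, 1.07 under 1,2,3-trichloropropane, 3.05 under 1-amino-2-methylanthraquinone, 3.099 under monuron and 0.70 under tetracycline hydrochloride, and Samd7 to 2.39, 0.996 and 0.61 under the first, second and last of the 6. Summed over the compounds, 433 calls were higher and 422 lower (50.6% higher), against 313 and 2702 with median centring (10.4% higher).

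Called list members with median centring were 2 ionotropic subunits, 10 genes of glutamate handling, 7 of glycine and serine, 1 Polycomb gene, 19 CAR and PXR targets (9 higher and 10 lower), 11 hepatocyte, 1 glia and 3 Kupffer markers. With the scanner's log ratio they were 2 ionotropic subunits, 1 photoreceptor gene and 2 hepatocyte markers, and the series table likewise called 2 ionotropic subunits. The mean of a gene's kept probes left 0 hepatocyte markers called. The other Grin2c probe read 3.96 under hexachloroethane. Keeping the 7 spots in the correction, an alternative chosen after seeing the data, gave 3.81 for Grin2c and 2.23 for Samd7 there.

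Without 1 replicate at a time, called genes under tetracycline hydrochloride ran from 20 (without replicate 1) to 54 (without replicate 4), and Kupffer markers from 0 to 1, with 0 without replicate 1. Grin2c ran from 4.02 to 4.07 under hexachloroethane and from 2.18 to 2.63 under 1,2-dichlorobenzene, and Samd7 from 2.20 to 2.63 under the latter. With the replicate number as a block (replicate block), Grin2c read 4.05 under hexachloroethane and 434 calls were higher and 423 lower. Rats of the same number did not deviate together (mean r 0.05, from -0.24 to 0.39 over 60 pairs), so the numbers do not pair them. The cause of each change was not tested. Signals near background limit the Grin2c ratios under 1,2,3-trichloropropane and tetracycline hydrochloride.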
